A study of Schizosaccharomyces pombe with 2 samples.

Results

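Sense transcript models that began at a protein-coding gene and stopped inside its coding sequence were described in 2 PacBio Iso-Seq libraries of *S. pombe*, the fission yeast. A model was counted as early-ending when it overlapped exactly 1 protein-coding gene on its strand in the RefSeq annotation of ASM294v3 and lay on chromosome I, II or III. It had to start upstream of the first coding base or within 50 nt after it, and to end inside the coding span, introns included, at least 100 nt before the last coding base. This choice used only positions, and it gave 7043 models of the 96116 in the series: 1423 of 26120 in the WT library and 5620 of 69996 in the pool library. In Iso-Seq, cDNA of polyadenylated RNA is read from end to end, and the files hold the exon coordinates of collapsed models without read numbers. Each library is the only sample of its group.

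The WT library came from untreated h+ cells that carry leu1-32, ura4-D18 and ade6-M216, grown in YES, a rich medium, at 32 °C to mid-log phase. Its counterpart, called the pool here, combined that strain with *hrp1*Δ*hrp3*Δ cells, which lack both CHD-family chromatin remodellers, and the cells were untreated or received 14 mM caffeine or 200 ng/ml clotrimazole, an antifungal azole. Genotype, drug, sequencing run and depth therefore cannot be told apart between the libraries, and no test was made between them. Because the pool also contains WT cells, its models cannot check the deletions. Sense models of *hrp3* numbered 5 in WT and 8 in the pool, and those of *hrp1* 5 and 7. The submitters name ASM294v2 as their build. The introns of the models carried GT and AG at their ends in 97.2% of distinct cases in WT and 89.7% in the pool when read from ASM294v3, against 0.146% and 0.187% when shifted by 10 nt, so ASM294v3 coordinates are used throughout.

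The 3′ end of an mRNA is made when the cleavage and polyadenylation machinery cuts the nascent RNA and adds a poly(A) tail. In yeasts the cut usually follows an A-rich element, of which AATAAA in DNA letters is the best known form, and lies among U-rich stretches. The same machinery can cut early, inside an intron or an exon, and such short transcripts may lack a stop codon or end on a retained intron. Libraries primed with oligo(dT) also have a known limit: the primer can anneal to A-rich stretches within an RNA, which gives a cDNA end where no tail was added. An end of that kind lies just before genomic A, and it is for this reason that the genome downstream of each end was read.

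Windows of 60 nt around end sites found in both libraries, as they stand in the RefSeq genome (ASM294v3) on the strand of the gene, show the kinds of ends that the members have. The first set holds coding-exon ends with many A downstream, and does not stand for all ends of their genes. *mug8*, *tho1* and *cnp3* have many early models, and *ppk3* was named for the A at its shared site. The mutant in the pool lacks the remodeller genes *hrp1* and *hrp3*. Capitals mark the 20 nt that follow the last base of the model.
mug8 (I:2446736-2446795, + strand): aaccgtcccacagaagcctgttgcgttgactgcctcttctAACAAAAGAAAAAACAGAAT
tho1 (III:1184683-1184742, + strand): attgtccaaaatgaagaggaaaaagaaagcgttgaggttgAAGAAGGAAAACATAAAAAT
cnp3 (II:4127572-4127631, - strand): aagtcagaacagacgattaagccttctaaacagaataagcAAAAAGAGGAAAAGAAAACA
ppk3 (I:3713545-3713604, + strand): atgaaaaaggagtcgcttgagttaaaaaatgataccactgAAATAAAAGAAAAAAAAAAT
hrp1 (I:2198712-2198771, + strand): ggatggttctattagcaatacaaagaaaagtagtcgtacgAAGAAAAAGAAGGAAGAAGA
hrp3 (I:5381957-5382016, + strand): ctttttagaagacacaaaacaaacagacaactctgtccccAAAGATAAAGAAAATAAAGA
In these windows the capitals hold 15 A in *mug8*, 14 in *tho1*, 15 in *cnp3*, 17 in *ppk3*, 14 in *hrp1* and 15 in *hrp3*.

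The second set holds shared ends inside annotated introns, again with the 20 downstream nt in capitals. *ctf18* is shown because its end precedes more A than any other shared site, the others because their genes lead by early models at shared intronic sites.
ctf18 (II:484535-484594, - strand): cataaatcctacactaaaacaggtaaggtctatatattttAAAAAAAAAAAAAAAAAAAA
vma13 (I:2620377-2620436, - strand): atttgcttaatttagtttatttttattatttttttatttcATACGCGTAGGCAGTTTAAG
trt1 (II:2063938-2063997, - strand): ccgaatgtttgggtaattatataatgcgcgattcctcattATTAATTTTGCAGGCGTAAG
The third set holds shared ends in an intron of *ftp105* and of SPAC823.09c, with an AATAAA from 40 to 5 nt before the end. In both, the AATAAA itself lies in the coding exon that precedes the intron. Here the capitals mark the AATAAA, and the model ends at base 40 of each window.
ftp105 (I:1788075-1788134, + strand): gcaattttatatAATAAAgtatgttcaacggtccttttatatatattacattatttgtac
SPAC823.09c (I:2594939-2594998, - strand): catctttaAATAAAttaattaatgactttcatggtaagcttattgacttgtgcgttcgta
The last set holds shared exonic ends with neither feature, and the capitals are again the 20 downstream nt, with 3 A in *dhp1* and 6 in *urk1*.
dhp1 (I:3358427-3358486, - strand): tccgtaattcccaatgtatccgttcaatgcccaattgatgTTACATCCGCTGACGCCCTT
urk1 (III:1557145-1557204, + strand): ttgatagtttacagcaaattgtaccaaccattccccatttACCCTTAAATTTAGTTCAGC

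Among models that began at the start of a single coding gene, called start-anchored here, 6.82% ended early in WT (1423 of 20869; exact 95% interval 6.48 to 7.17%) and 12.2% in the pool (5620 of 46127; 11.9 to 12.5%). All intervals given are Clopper-Pearson intervals and cover counting error only. Models that reached or passed the last coding base, called full-length here, numbered 18990 in WT and 38874 in the pool. Near the 100 nt limit, 90 WT and 374 pool models ended less than 50 nt inside it and were counted as early, while 143 and 448 ended up to 50 nt outside it and were not. A further 44 WT and 410 pool models stopped before the first coding base. The share that ended early was thus higher in the pool, and the pool held 3.95 times as many early models as WT against 2.05 times as many full-length models.

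The early ends lay well inside the genes. The median end fell 730 nt before the last coding base in WT, at 68.7% of the coding span, and 716 nt before it in the pool, at 63.8%. Past the midpoint of the span lay 75.7% of the WT ends (73.4 to 77.9%) and 68.5% of the pool ends (67.2 to 69.7%). The first 10% of the span held 1.41% of the ends in WT and 2.37% in the pool, and the stretch from 80 to 90% held 19.04% and 17.4%, while each of these stretches held 10.4 to 10.5% of the host bases where an early end could lie. The shortest early model measured 640 nt (WT) or 259 nt (pool), which leaves little room for ends close to the first coding base. How far this length limit shapes the spread of the ends was not tested. Early models were shorter than full-length ones, with a median of 1727 nt against 1840 in WT and of 1464 nt against 1708 in the pool. In both libraries most had a single exon (61.6% and 62.4%), and those that were spliced used GT-AG introns alone in 98.5% and 99.01% of cases.

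**Figure D1:**
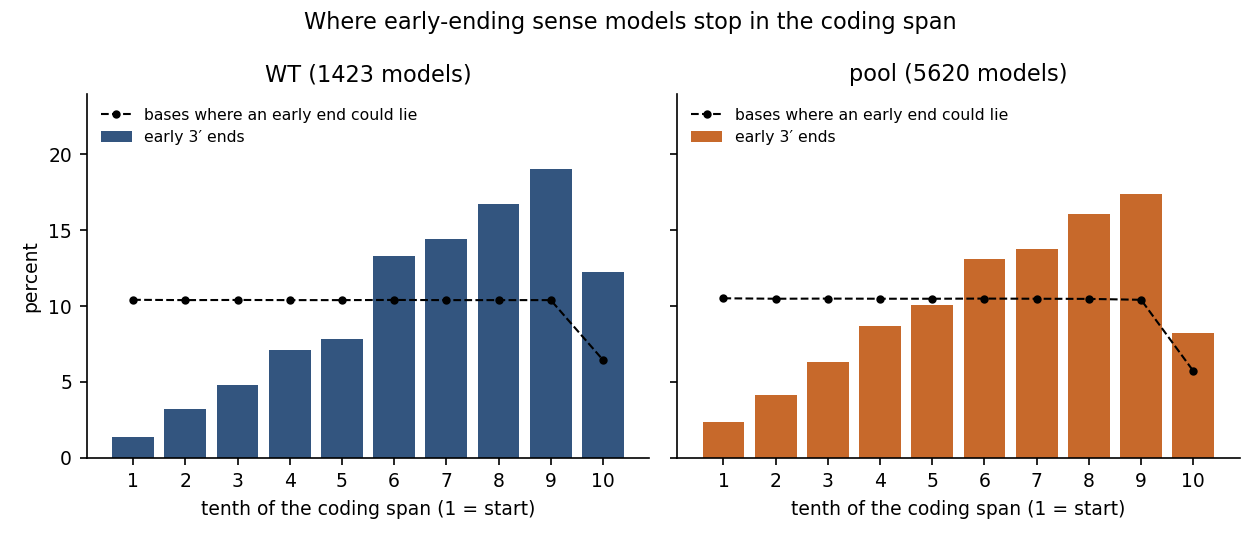
Percent of early 3′ ends (bars) in each of 10 equal stretches of the coding span of their gene, counted from the first coding base, in WT and in the pool. The dashed line gives the percent of host bases where an early end could lie. In both libraries the bars climb from the first stretch (1.41% in WT, 2.37% in the pool) to the one from 80 to 90% (19.04% and 17.4%). The bars are not corrected for the lack of very short models.

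Most early ends sat just before genomic A. The next base was A at 86.4% of early ends in WT and 82.01% in the pool, against 73.7% and 75.8% of full-length ends. In the 20 nt downstream the median number of A was 11 in WT and 10 in the pool, against 7 at full-length ends in both libraries. Ends with 12 or more A in that window are called A-rich. They made up 48.5% of early ends in WT (690 of 1423; 45.9 to 51.1%) and 33.1% in the pool (1861 of 5620; 31.9 to 34.4%). The same share was 9.73% at full-length ends in WT, 10.2% in the pool and 1.25% over every base of all genes where an early end could lie. The comparison was repeated over non-A bases followed by A, which held 86.1% of early ends in WT and 81.5% in the pool. Among these, 53.9% of early ends in WT and 38.9% in the pool were A-rich, against 2.57% and 2.50% of such bases in the hosts. Within the hosts that had both kinds of model, the median A content was higher at the early than at the full-length ends in 632 of 811 genes in WT and in 1354 of 1969 in the pool, and lower in 145 and 476.

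The density of early ends rose with the A content of the genome downstream. Over the coding spans of genes with a start-anchored model, WT had 0.390 early ends per 10000 bases where 0 to 3 of the 20 downstream bases were A, 7.94 where 10 or 11 were, and 342.5 where 14 or more were. In the pool the same densities were 2.61, 30 and 740.5. The libraries differed most where A was scarce. At 0 to 3 A the pool held 7.11 times as many early ends as WT (249 against 35), and this ratio fell step by step to 2.41 at 14 or more A (677 against 281), beside 2.05 for full-length models. Whether depth, run, drug or genotype set this gradient cannot be told apart.

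**Figure D2:**
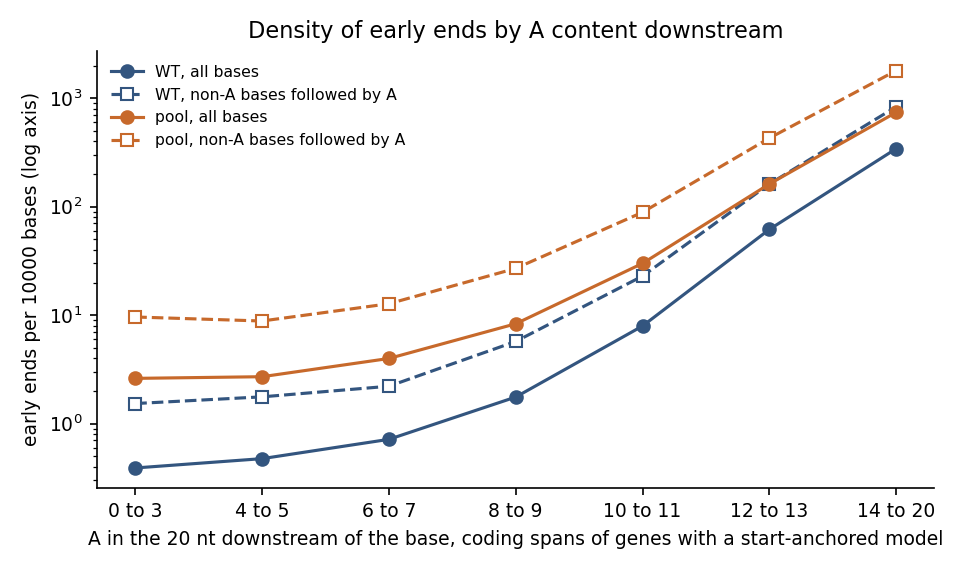
Early 3′ ends per 10000 bases (log axis) by the number of A in the 20 nt downstream, over all bases (filled) and over non-A bases followed by A (open), in WT and in the pool. Over all bases the density climbs from 0.390 to 342.5 in WT and from 2.61 to 740.5 in the pool, and the lines of the libraries draw closer as A increases.

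In coding exons the genome after A-rich ends was rich in lysine, glutamate and asparagine codons. A-rich ends are defined by A in these same 20 nt, so codons made largely of A are bound to be common there. Codons in other A-rich stretches of the hosts were not counted. Of the in-frame codons that fell wholly within the 20 nt after an A-rich exonic end, 38.8% encoded lysine in WT and 38.1% in the pool, against 6.58% and 6.49% of all codons of the hosts. Glutamate codons made up 15.0% and 14.6% there, against 6.93% and 6.71%, and asparagine codons 10.6% and 10.45%, against 5.335% and 5.34%. After the other exonic ends lysine still made up 16.4% and 14.6% of codons, while glutamate, at 7.54% and 6.79%, was near the level of all codons.

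Few early ends lay in introns. They numbered 27 of 1423 in WT (1.90%; 1.25 to 2.75%) in 22 genes, and 211 of 5620 in the pool (3.75%; 3.27 to 4.29%) in 133 genes. Introns took up 2.94% of the host bases where an early end could lie in WT, 3.98% in the pool, and 5.68% over all genes. Per 10000 bases of genes with a start-anchored model, WT had 0.787 intronic and 2.38 exonic ends, and the pool 5.56 and 8.58. Intronic bases are present only in transcripts that have not removed the intron, and the densities were not corrected for this. Leaving out the A-rich ends narrowed it, to 0.710 against 1.22 in WT and 4.69 against 5.75 in the pool.

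Intronic ends differed from exonic ones in the sequence around them. Of the intronic ends, 3 of 27 were A-rich in WT (11.1%; 2.35 to 29.2%) and 36 of 211 in the pool (17.1%; 12.25 to 22.8%), against 49.2% and 33.7% of exonic ends. AATAAA stood 5 to 40 nt before the end, on the strand of the gene, at 5 of 27 intronic ends in WT (18.5%; 6.30 to 38.1%) and 23 of 211 in the pool (10.9%; 7.04 to 15.9%). At exonic early ends it stood in 2.87% and 3.14%, at full-length ends in 13.6% and 13.1%, over all bases in 1.68% and over intronic bases in 2.85%. T made up 52.2% of the 10 nt before intronic ends in WT and 47.1% in the pool, near the 45.8% and 44.95% before full-length ends. Introns as a whole hold 39.5% T. Before exonic ends that were not A-rich the T content was 34.0% and 34.7%, against 30.4% in all coding exons. The A content 16 to 25 nt before the end was 39.6% and 39.4% at intronic ends, 40.98% and 40.8% at full-length ends, and 32.2% and 32.8% at exonic ends that were not A-rich. In this A and T content upstream of the end, intronic ends lay nearer to full-length ends than did exonic ends that were not A-rich.

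**Figure D3:**
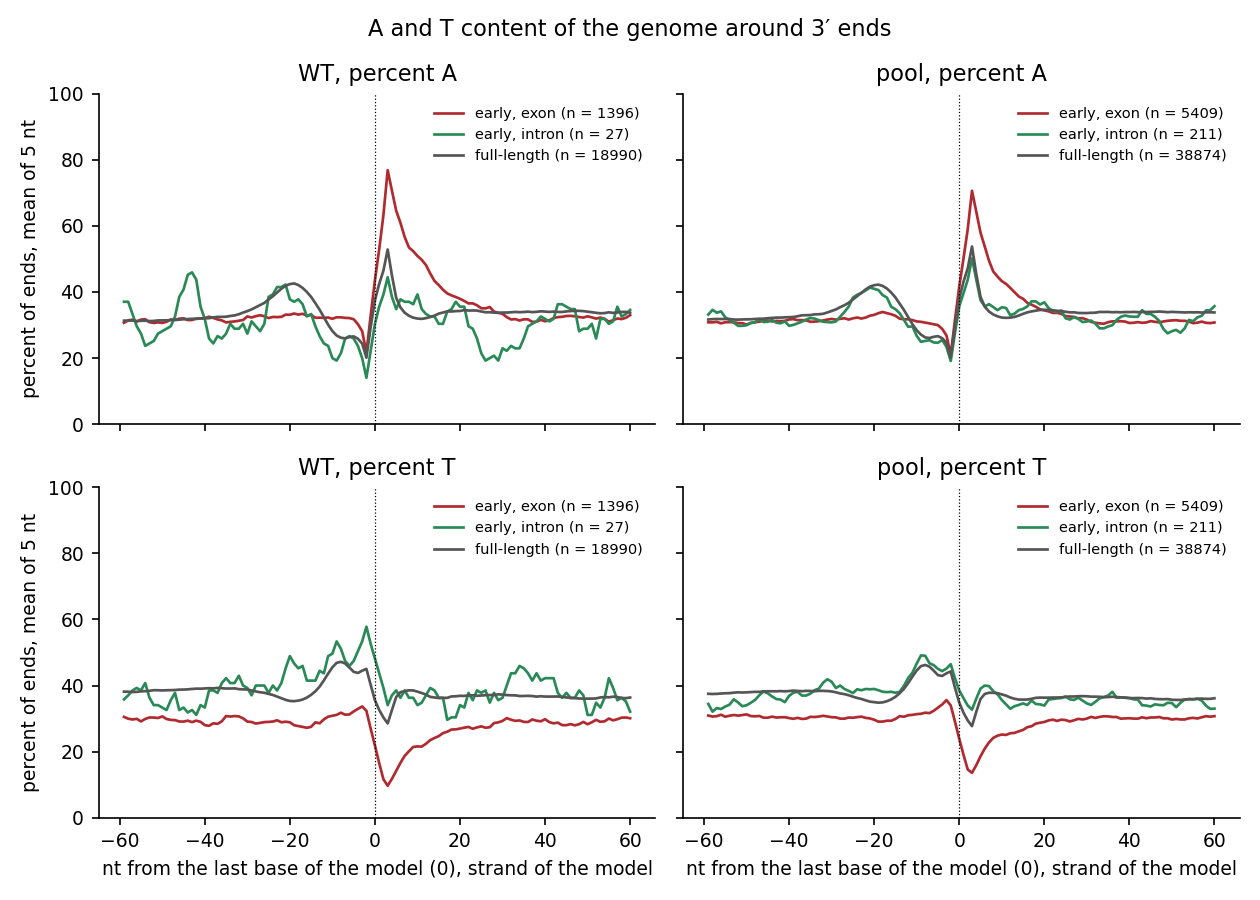
Percent A (top) and percent T (bottom) of the genome by position around the last base of a model, as a running mean of 5 nt, for early ends in exons, early ends in introns and full-length ends, in WT and in the pool. The pool's intronic ends and the full-length ends share a rise in A about 20 nt before the end and a rise in T just before it, while exonic early ends lack the rise in A upstream, show a smaller rise in T and have the highest A after the end. The WT intronic line rests on 27 ends and is uneven.

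The introns that held an early end measured 80 nt (WT) and 117 nt (pool) at the median, and the ends lay at a median of 61.8% and 60.8% of the intron. Ends within 5 nt of a splice site were a minority, 5 of 27 and 17 of 211. The introns upstream in the same models were spliced exactly as annotated in 40 of 45 cases in WT and 252 of 331 in the pool, against 87.3% and 78.3% in full-length models.

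An early end usually left the reading frame open, which the positional rule largely sets. Early models stop before the annotated stop codon, and full-length models reach it. Of early models that contained the first codon, the frame met a stop codon in 100 of 1408 in WT (7.10%; 5.82 to 8.57%) and in 807 of 5566 in the pool (14.5%; 13.6 to 15.45%), against 99.9% or more of full-length models. The intronic ends were the exception. Their frame met a stop in 17 of 26 models in WT (65.4%) and 165 of 208 in the pool (79.3%). Among exonic ends it did so in 6.01% and 11.98%, and most of those models kept an annotated intron unspliced, 70 of 83 in WT and 587 of 642 in the pool.

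Ends within 10 nt of each other in a gene were joined into end sites, which gave 1361 sites in WT and 5172 in the pool. Nearly all held a single model, 96.0% and 93.8%. Highly similar transcripts had been collapsed beforehand, so this does not show how often a site was used. Both libraries used 1035 sites, which is 76.05% of the WT sites and 20.01% of the pool sites. For comparison, 2.82% of the host bases in WT lay within 10 nt of an early end of the pool, and 0.661% of the host bases in the pool lay within 10 nt of one of WT. A-rich sites of WT recurred in the pool more often (568 of 639, 88.9%; 86.2 to 91.2%) than the others (467 of 722, 64.7%; 61.1 to 68.2%). Of the shared sites 54.9% were A-rich, against 21.8% of those seen in WT alone and 23.9% of those seen in the pool alone. Recurrence at a site does not tell a primed end from a cleaved one, since the genome is the same in both libraries.

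Antisense models over the end were about as common as over the hosts at large. An opposite-strand model free of coding genes on its own strand covered 6.395% of early ends in WT (5.18 to 7.79%) and 49.7% in the pool (48.4 to 51.03%). Such models also covered 5.90% of the host bases in WT and 51.7% in the pool. The pool share was thus slightly below that of its hosts.

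Ends near the start of a gene were often of models that began far upstream. In the first 20% of the coding span, 16 of 66 early models in WT (24.2%; 14.5 to 36.4%) and 140 of 366 in the pool (38.25%; 33.25 to 43.45%) started more than 200 nt upstream of the annotated gene. Beyond that these shares were 3.83% (2.875 to 4.995%) and 8.36% (7.62 to 9.14%), and at full-length models 7.20% and 13.05%. A sense non-coding RNA gene was covered over at least 50% of its length by 7 of the 66 (10.6%) and 48 of the 366 (13.1%). The same held for 0.516% and 1.68% of early models that ended further on, and for 2.17% and 3.75% of full-length models. Very short early models were lacking, with a minimum of 640 nt (WT) or 259 nt (pool). The nearer an end lies to the start of a gene, the further upstream its model must begin to reach a given length. How far this accounts for the higher shares in the first 20% was not tested.

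The clearest case was *tgp1*, which encodes a glycerophosphodiester transporter of the plasma membrane. Its promoter is crossed by the long non-coding RNA nc-tgp1 (II:352335-354234, - strand), whose transcription is known to repress the gene. All 4 WT early models and 8 of the 9 pool models assigned to *tgp1* covered at least 50% of nc-tgp1. In WT they started 1862 to 1864 nt before the first coding base and ended between base 18 and base 468 of the coding span. Those of the pool ended between bases 8 and 885. The ends were spread over 9 sites, of which 3 were shared, and none was A-rich. *pho1*, an acid phosphatase gene, had 9 early models in the pool and none in WT. It overlaps the non-coding RNA nc-pho1 (also called prt, II:4446359-4448918, + strand), which begins upstream of it. Of the 9 models, 8 covered at least 50% of nc-pho1. All 9 ended inside nc-pho1, between positions 4447640 and 4448714. *pho1* was named after its values were seen. The models of both genes meet the positional rule. At *tgp1*, the WT model that ended at base 18 and the pool models that ended at bases 8 and 23 stopped inside nc-tgp1. The other *tgp1* models ran past nc-tgp1 into the coding sequence, while those of *pho1* did not leave nc-pho1. Of all early models, 3 of 1423 in WT and 20 of 5620 in the pool ended within a sense non-coding RNA gene.

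Genes with at least 1 early model, called hosts, numbered 869 of the 4208 with a start-anchored model in WT (20.7%; 19.4 to 21.9%) and 2042 of 4702 in the pool (43.4%; 42.0 to 44.9%). Of these, 846 were hosts in both libraries, which is 97.4% of the WT hosts and 41.4% of the pool hosts. A single early model was all that 62.6% of WT hosts and 36.5% of pool hosts had, and 22 and 340 genes had 5 or more. More early than full-length models were found in 126 WT hosts and 312 pool hosts, and 58 and 73 had no full-length model.

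Hosts were long genes. Their median coding span was 2300 bp in WT and 1854 bp in the pool, against 1142 and 926 bp for other genes with a start-anchored model. Of genes under 1000 bp, 1.06% were hosts in WT and 10.8% in the pool. No early model was shorter than 640 nt in WT or 259 nt in the pool, which leaves short genes little room for one. How far this accounts for the rise with span was not tested. Of genes of 3000 bp or more, 68.6% (63.55 to 73.3%) and 91.2% (87.97 to 93.9%) were. The number of early models per 10000 bases rose with span as well, from 0.230 in WT genes under 1000 bp to 1.69 in those from 1000 bp and 3.38 in those from 2000 bp, and was 3.34 from 3000 bp. In the pool it was 2.765, 8.29, 11.6 and 8.90. Hosts and other genes had the same median number of full-length models, 4 in WT and 7 in the pool, and a similar share with an intron in the coding span (45.2% against 46.9% in WT, 46.2% against 48.2% in the pool).

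**Figure D4:**
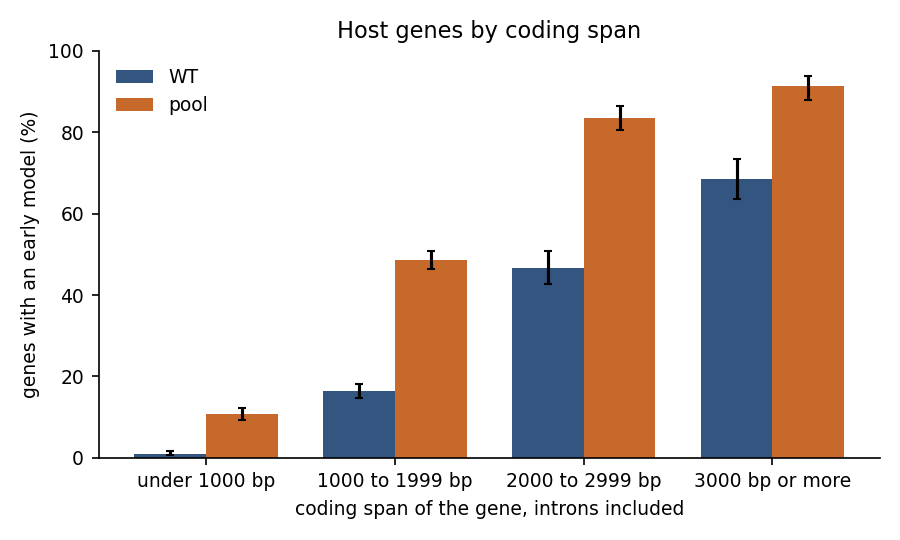
Percent of genes with a start-anchored model that had at least 1 early model, by coding span, in WT and in the pool. Error bars are exact 95% intervals. The share climbs from 1.06% to 68.6% in WT and from 10.8% to 91.2% in the pool between genes under 1000 bp and genes of 3000 bp or more.

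The 6 genes with the most early models over both libraries were *mug8*, *tho1*, *cnp3*, *dhp1*, *elf1* and SPAC694.02. *mug8*, named for its upregulation in meiosis, had 6 early models in WT and 18 in the pool beside 2 and 8 full-length ones. Its ends lay at 10 sites. The printed site held 4 models of each library and a site 56 nt further on held 2 and 4, both A-rich. *tho1*, annotated as a subunit of the THO complex of mRNA export, had 7 and 14 early models beside 6 and 12 full-length ones. Of its early ends 19 were A-rich, and 18 lay at 3 shared sites. *cnp3*, the CENP-C protein of the kinetochore, had 1 early model in WT and 18 in the pool, beside 1 and 5 full-length ones, and 11 of its early ends were A-rich. In *mug8* and *tho1* early models outnumbered full-length ones in both libraries, and in *cnp3* they did so in the pool.

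*dhp1* encodes a nuclear 5′-3′ exoribonuclease that takes part in transcription termination. It had 8 early models in WT and 11 in the pool, beside 8 and 12 full-length ones. All 8 WT sites recurred in the pool, spread from base 1364 to base 2446 of a span of 2976 bp without introns, and they held 3 to 13 A downstream. *elf1*, an AAA family ATPase gene, had 5 and 14 early models beside 4 and 7 full-length ones, at 14 sites of which 5 were shared. SPAC694.02, annotated as a DEAD/DEAH box helicase, had 8 and 10 beside 4 and 5, and 8 of its 9 sites were shared. No site in these 3 genes held more than 2 models of a library, while the leading sites of *mug8* and *tho1* held up to 4. These 3 genes have no annotated coding intron, while *mug8* and *tho1* have 2 each. Collapsed models with the same end must differ in start or splicing, so the counts do not measure how much a site was used.

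Introns gave a different set of genes. In *vma13*, subunit H of the vacuolar proton pump, 10 of 11 early models ended in the last annotated intron, of 255 bp. These were both WT models and 8 of the 9 pool models, with 1 WT and 6 pool models at the printed site, 102 nt before the last coding base. No start-anchored model of *vma13* reached the annotated last coding base in either library. *trt1*, the telomerase reverse transcriptase, had 1 early model in WT and 15 in the pool beside 6 full-length ones in each, and 11 of the 16 ended in introns. The printed site, in an intron of 41 bp, held the WT model and 7 of the pool models. Another intron of 39 bp held 3 pool models and none of WT. *vma13* and *trt1* had no A-rich early end.

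*ftp105*, which encodes a partner of the deubiquitinase Ubp5, had 2 early models in WT and 5 in the pool beside 4 and 7 full-length models, and 5 of these 7 ends lay in introns. SPAC823.09c, a predicted threonine aspartase gene, had 2 and 1 early models beside 3 and 12 full-length ones, all 3 at the printed site 7 nt into an intron of 52 bp. SPBPB2B2.18, which is uncharacterized, had 2 and 6 early models beside 0 and 1 full-length ones. *elg1*, a replication factor C-like subunit gene, had 1 and 2 early models at an intronic site with 14 A downstream, beside 3 full-length models in each library.

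Among shared exonic sites without A-rich genome, *lrs1*, the leucine-tRNA ligase gene, had 5 early models in WT and 9 in the pool beside 8 and 11 full-length ones, with 5 shared sites. *urk1*, a uridine kinase gene, had 6 early models in each library beside 10 and 15 full-length ones, and none of its early ends was A-rich.

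Among the shared sites with the most A were those of *ctf18*, SPBC713.07c and *ppk3*. *ctf18* is a subunit gene of a replication factor C-like complex, with 3 early models in WT and 5 in the pool beside 2 and 3 full-length ones. The site in its intron, where all 20 downstream bases are A, held 1 model of each library. SPBC713.07c, a polyphosphatase gene, had 1 and 2 early models beside 3 and 5 full-length ones. *ppk3*, a protein kinase-like gene, had 3 and 8 beside 3 in each, and 7 of the 11 were A-rich. The remodeller gene *hrp1* had 3 early models in WT and 1 in the pool beside 2 full-length ones in each, and *hrp3* 2 in each beside 2 and 1. A-rich ends made up 3 of 4 in *hrp1* and 4 of 4 in *hrp3*.

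**Figure D5:**
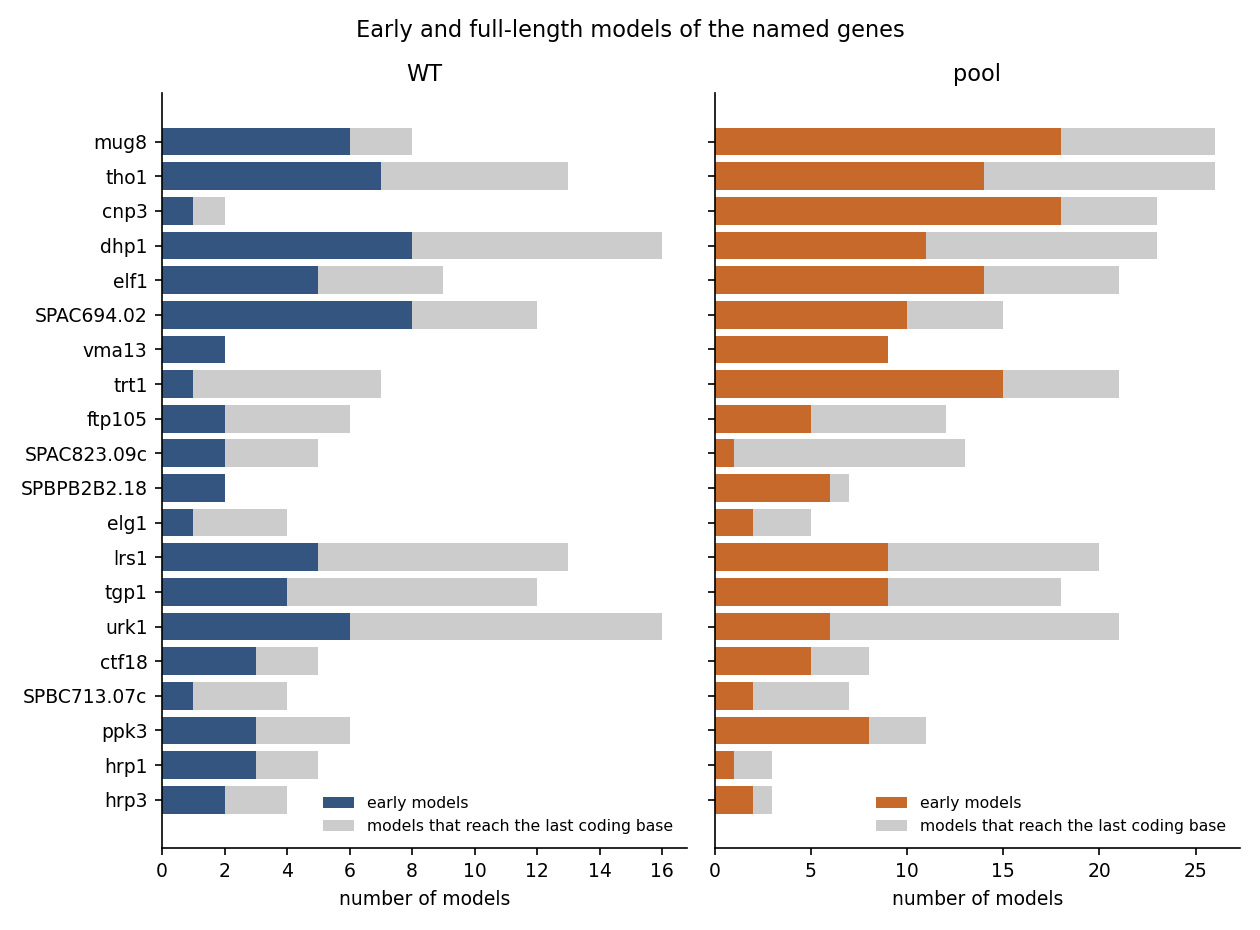
Number of early models (coloured) and of full-length models (grey) for each named gene, in WT and in the pool. *vma13* shows no grey bar in either library, and *mug8* has the most early models in the pool together with *cnp3*, 18 each.

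Gene lists differed in how many members were hosts, and their spans differed too. Of cytoplasmic ribosomal protein genes with a start-anchored model, 1 of 94 was a host in WT and 6 of 131 in the pool, with a median coding span of 593.5 and 531 bp. The WT host was *rpl402*, with 1 early model in WT and 3 in the pool. Glycolysis and fermentation genes, with a median of 1322 and 1323 bp, had 1 host of 16 in WT, the pyruvate kinase gene *pyk1* with 2 early models, and 9 of 17 in the pool, with 4 models each in *pyk1* and the pyruvate decarboxylase gene *pdc101*. Over all genes 20.7% and 43.4% were hosts, with medians of 1329 and 1257 bp.

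Genes for Snf2-family remodellers, at a median of 3867 and 3861 bp, were hosts in 13 of 15 cases in WT and 15 of 16 in the pool, led by *fft2* with 3 and 6 early models. Next, with equal totals, came *mit1*, *mot1* and *swr1* with 2 and 5 each and *rrp2* with 1 and 6. Of the cleavage and polyadenylation machinery, at a median of 1824 and 1677 bp, 7 of 15 and 10 of 16 genes were hosts. Early models numbered 2 and 8 in *ysh1*, the endonuclease, and 4 in each library in *cft2*. Genes of transcription termination and nuclear RNA surveillance, at a median of 2002 bp in both libraries, were hosts in 8 of 16 and 14 of 16 cases. After *dhp1*, the helicase gene *sen1* led them with 4 and 6 early models beside 1 full-length model in each library. Of meiotic genes, at a median of 1807 and 1423 bp, 4 of 11 (36.4%) and 8 of 20 (40%) were hosts, beside 20.7% and 43.4% of all genes. They were led by *mug8* and by the cohesin gene *rec8* with 0 and 4 early models.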

How the data were processed

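The authors clustered HiFi reads into isoforms, mapped them with minimap2 and collapsed them with TAMA Collapse. The deposited files give the start, end, strand and exons of each model, as positions, and a score that the authors' processing left at 40 on every model and that was not used. No read numbers are in them, so the depth per model and per library is unknown, and the tolerance at 3′ ends is not given in the sources used here.

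Computed here were the classes of models, the shares of their ends and the genome around them, from the RefSeq genome and annotation of ASM294v3 (5113 protein-coding genes, the longest coding sequence of each), in Python 3.11.15 (Matplotlib 3.10.9, NumPy 2.4.6, SciPy 1.17.1). The classes were tested on simulated data. Named genes were, by rule, the 6 with the most early models, the 6 each with the most at shared intronic and at shared exonic sites under 12 A, the 4 at the shared sites with the most A, the deleted genes, and up to 4 leading members per list. The symbols fip1 and clp1, which name other genes in *S. pombe*, were taken out of the cleavage and polyadenylation list. Some genes that meet this rule are not reported here. Members and lists were chosen with earlier results of these data known. Alternatives changed the distance, the start, the unit, the splice sites, the overlap and the A-rich rule.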

Additional observations from a re-analysis of the deposited data

How the results depend on the processing

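Each of the 4 main results (the early share, its intronic share, its A-rich share and the number of hosts) was recomputed in each library, which gave 54 values under the alternatives. A share was taken as unchanged within its own 95% interval and a number of genes within 1.5 times, and 38 of the 54 were. With 300 nt required before the last coding base, the early share was 5.26% in WT and 9.49% in the pool, and the intronic share of the pool 3.245%. With 1 model per end site, the early share was 7.35% and 14.2%, and the A-rich share of the pool 30.2%. Leaving out A-rich ends gave early shares of 4.04% and 9.43%, intronic shares of 3.27% and 4.66%, and 526 hosts in WT. Leaving out ends before a run of 6 or more A gave early shares of 5.11% and 10.15%, and an intronic share of 4.41% in the pool. That run as the A-rich rule gave A-rich shares of 31.8% and 24.9%. In each of these settings the early share was higher in the pool, and wherever an A-rich share was computed it was lower there. The cause was not tested. No paired analysis was possible because each group has 1 library.

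The files hold no read numbers. A model that is missing from a library therefore sets no limit on its level there, every model counts alike whether few or many reads lie behind it, and the files differ in size, with 26120 models in WT and 69996 in the pool. Intervals on the 27 intronic ends of WT are wide. With 1 library in each group, no spread between samples can be had.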
